A study of Mus with 18 samples.

Results

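The genes described are 10 enzymes that make or use nicotinamide adenine dinucleotide (NAD), out of 21401 gene symbols measured in each of 2 RNA-seq experiments. They comprise Nampt, Itgb1bp3, Nmnat1 and Nmnat3 (synthesis), Nnmt (removal of nicotinamide), and Sirt1, Sirt2, Sirt3, Parp1 and Cd38 (consumption). RefSeq's gene table gives Itgb1bp3 as an older symbol of Nmrk2, nicotinamide riboside kinase 2. The set was chosen because Itgb1bp3 was low in muscle labelled LPS-MIC-1, at a mean of 14.6 FPKM against 400 FPKM in muscle labelled LPS. FPKM expresses reads relative to the length of a transcript and the size of the library. For all 10 genes, both muscle comparisons that involve LPS-MIC-1 are therefore given as a description, without p-values.

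NAD carries electrons in energy metabolism and is also split by enzymes that use it as a substrate. Cells rebuild it mainly from nicotinamide, which Nampt converts to nicotinamide mononucleotide. The kinase encoded by Itgb1bp3 makes the same intermediate from nicotinamide riboside and is known for its expression in muscle, and the Nmnat enzymes then complete NAD. Sirtuins remove acyl groups from proteins, Parp1 attaches ADP-ribose to proteins at DNA breaks, and Cd38 hydrolyses NAD, each at the cost of NAD.

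The samples were 9 libraries of C2C12, a mouse myoblast line, and 9 of gastrocnemius, a calf muscle, from wild-type C57BL/6 male mice, with 3 libraries per group (control, LPS, LPS-MIC-1). Lipopolysaccharide (LPS) is a bacterial membrane component that triggers inflammation, and MIC-1 is moringa isothiocyanate-1, a plant compound. In cells, LPS was given at 1 μg/mL and MIC-1 at 10 μM according to the sample labels (24 h), whereas the study's text names a lower MIC-1 concentration. Mice of the LPS-MIC-1 group were gavaged with 80 mg/kg MIC-1 for 3 days, LPS was injected at 10 mg/kg, and muscle was taken 16 h later. Control samples received vehicle, no group received MIC-1 alone, and the ages of the mice are not given in the labels. C2C12 is 1 cell line, and nothing states that its replicates were separate cultures, so p-values there measure only the spread between these libraries.

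Markers of cell types were checked before the genes themselves. In the C2C12 experiment, 11 of 12 macrophage markers were found, and their summed level was 10095 to 10143 FPKM in the libraries labelled control and 7134 to 7315 FPKM in those labelled LPS. In LPS-MIC-1 it was 276, 80.0 and 91.1 FPKM in replicates 1 to 3. The 8 myogenic markers summed to 0.136 to 0.361 FPKM in control and 0.301 to 1.99 FPKM in LPS, and 4 and 3 of them were at 0 in every library of those groups. In LPS-MIC-1 they summed to 704 to 914 FPKM. In the 6 libraries labelled control or LPS, the markers are thus not those of the myoblast line in the labels, and every C2C12 direction below is one between libraries with those labels. For LPS-MIC-1, treatment and cell type cannot be told apart.

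Muscle libraries carried their tissue's markers. The summed level of the 12 muscle-fibre markers was 179500 to 183850 FPKM in control, 171890 to 173750 FPKM in LPS, and lowest, 137500 to 147650 FPKM, in LPS-MIC-1. Their median per library overlapped between LPS (8028 to 8233 FPKM) and LPS-MIC-1 (7744 to 8221 FPKM), so the markers did not all fall alike. The macrophage markers summed to 16.9 to 20.5 FPKM in control, 23.1 to 26.4 FPKM in LPS and 34.0, 31.9 and 189 FPKM in LPS-MIC-1, where replicate 3 stood apart. Their median per library was 1.18 to 1.37 FPKM in LPS and 1.44, 1.31 and 12.4 FPKM in LPS-MIC-1. The 7 neutrophil markers found summed to at most 0.750 FPKM in control, at most 0.739 FPKM in LPS and 11.2 to 17.1 FPKM in LPS-MIC-1. In LPS-MIC-1, S100a8, S100a9 and Ngp averaged 7.38, 3.81 and 3.16 FPKM, and the other 4 stayed under 1 FPKM on average. Endothelial markers summed to 61.3 to 65.7 FPKM in control, 39.2 to 41.5 FPKM in LPS and 39.9 to 44.0 FPKM in LPS-MIC-1. In bulk tissue, fewer cells of a type and less RNA per cell cannot be told apart.

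**Figure D1:**
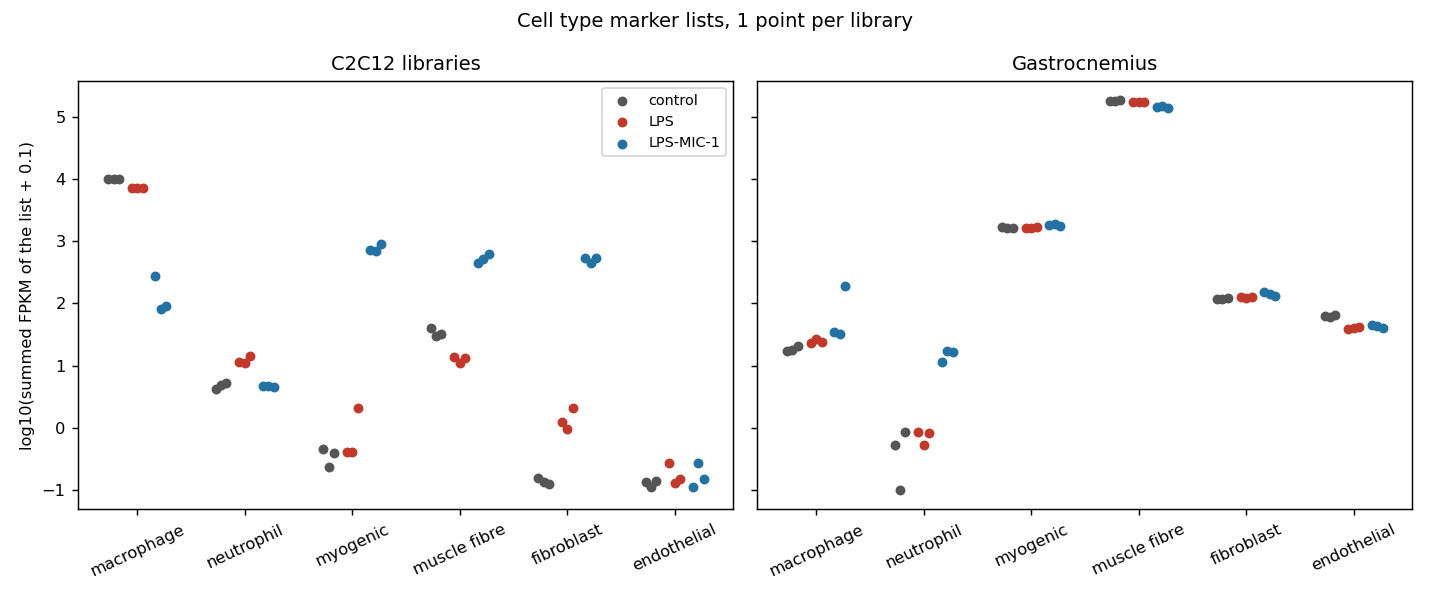
Summed FPKM of 6 marker lists, as log10(sum + 0.1) on the vertical axis, for each C2C12 library (left) and each gastrocnemius library (right), with control in grey, LPS in red and LPS-MIC-1 in blue. In C2C12, macrophage markers are high in control and LPS and myogenic markers only in LPS-MIC-1, whereas in muscle the fibre markers are high in all 9 libraries and the third LPS-MIC-1 library has the most macrophage signal (189 FPKM).

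In control muscle, Itgb1bp3 had the highest level of the 10 genes, at 226 ± 7.01 FPKM (mean ± SD, n = 3). Sirt2 followed at 88.2 ± 3.37 FPKM and Nampt at 33.3 ± 1.16 FPKM. Parp1, Sirt3, Nmnat1, Nmnat3 and Cd38 lay between 16.4 and 5.10 FPKM, and Nnmt and Sirt1 near 1 FPKM. Neighbors in this order did not overlap between libraries, except Nnmt and Sirt1. In muscle labelled LPS-MIC-1 the order was Sirt2, Nampt, Parp1, Itgb1bp3, Nmnat1, Sirt3, Nmnat3, Cd38, Sirt1 and Nnmt. There, Itgb1bp3 overlapped with Parp1 (15.7 ± 0.686 FPKM), Nmnat1 with Sirt3, and the last 3 with their neighbors.

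To see how LPS alone related to these genes in muscle, LPS libraries were compared with control libraries in limma on log2(FPKM + 0.1). Calls required a log2 fold change beyond 1 in size together with an adjusted p (Benjamini-Hochberg) under 0.05. None of the 10 genes was called, against a background of 1.25% of the 9475 genes tested, and at an unadjusted p under 0.05 with the same fold threshold the number was also 0. Without the fold threshold, 3 of the 10 passed the adjusted p, against 15.7% of all genes tested, and 4 passed an unadjusted p under 0.05, against 29.6%. The 3 were Itgb1bp3 and Nmnat1, higher in LPS, and Cd38, lower in LPS. These LPS libraries were in view when Itgb1bp3 was chosen, so its place in the counts is only a description. In 5 of the 10 genes all LPS libraries lay above all control libraries, as in 18.8% of all genes tested, and in 1 below, as in 17.7%. The 10 genes had a median log2 fold change of 0.12, and all genes tested one of 0.0055.

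Itgb1bp3 had 223, 222 and 235 FPKM in the 3 control libraries and 393, 402 and 405 FPKM in the LPS libraries. All LPS libraries lay above all control libraries. On the log2 scale the difference was 0.82 ± 0.0638 (standard error, adjusted p = 1.23e-04), which is 1.77-fold and under the fold threshold. These LPS libraries also belong to the comparison by which the set was chosen, so this p-value is a description and no support. Nmnat1, the nuclear enzyme that completes NAD, had 11.3, 12.7 and 10.9 FPKM in control and 15.3, 14.2 and 14.3 FPKM in LPS, without overlap. The log2 difference was 0.33 ± 0.0799 (standard error, adjusted p = 0.028).

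Cd38 went the other way, with 5.02, 5.07 and 5.20 FPKM in control libraries and 3.20, 2.58 and 3.20 FPKM in LPS. This gave -0.76 ± 0.0974 on the log2 scale (standard error, adjusted p = 0.00155). The summed endothelial markers were also lower in LPS than in control, without overlap, and their part in the level of Cd38 was not tested.

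Nampt was higher in all 3 LPS libraries, at 35.2 to 36.9 FPKM against 31.9 to 34.1 FPKM, but its log2 fold change of 0.12 (standard error 0.0388) had an adjusted p of 0.0805. The mitochondrial Nmnat3 had a log2 fold change of 0.12 (95% interval -0.011 to 0.24) and Parp1 one of 0.099 (95% interval -0.018 to 0.22). Sirt2, a mainly cytoplasmic deacetylase, had a log2 fold change of -0.061 (95% interval -0.19 to 0.070), and Sirt3, the main mitochondrial deacetylase, one of 0.050 (95% interval -0.14 to 0.24). All 4 intervals include 0 and stay well inside the fold threshold of 1.

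Sirt1 and Nnmt were too low in muscle for a firm comparison. Sirt1, a nuclear deacetylase, had 1.26, 0 and 0.476 FPKM in control and 0.636, 1.26 and 2.39 FPKM in LPS. A log2 difference of 1.66 ± 0.904 (standard error, adjusted p = 0.265) was 0.61 without control replicate 2, the library at 0, and 2.50 without control replicate 1. Nnmt, which methylates nicotinamide and so takes it out of salvage, had 0.716, 1.95 and 0.716 FPKM in control and 1.89, 1.82 and 1.70 FPKM in LPS. The log2 difference was 0.78 ± 0.407 (standard error, adjusted p = 0.246), and 1.22 without control replicate 2 (adjusted p = 0.0523).

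**Figure D2:**
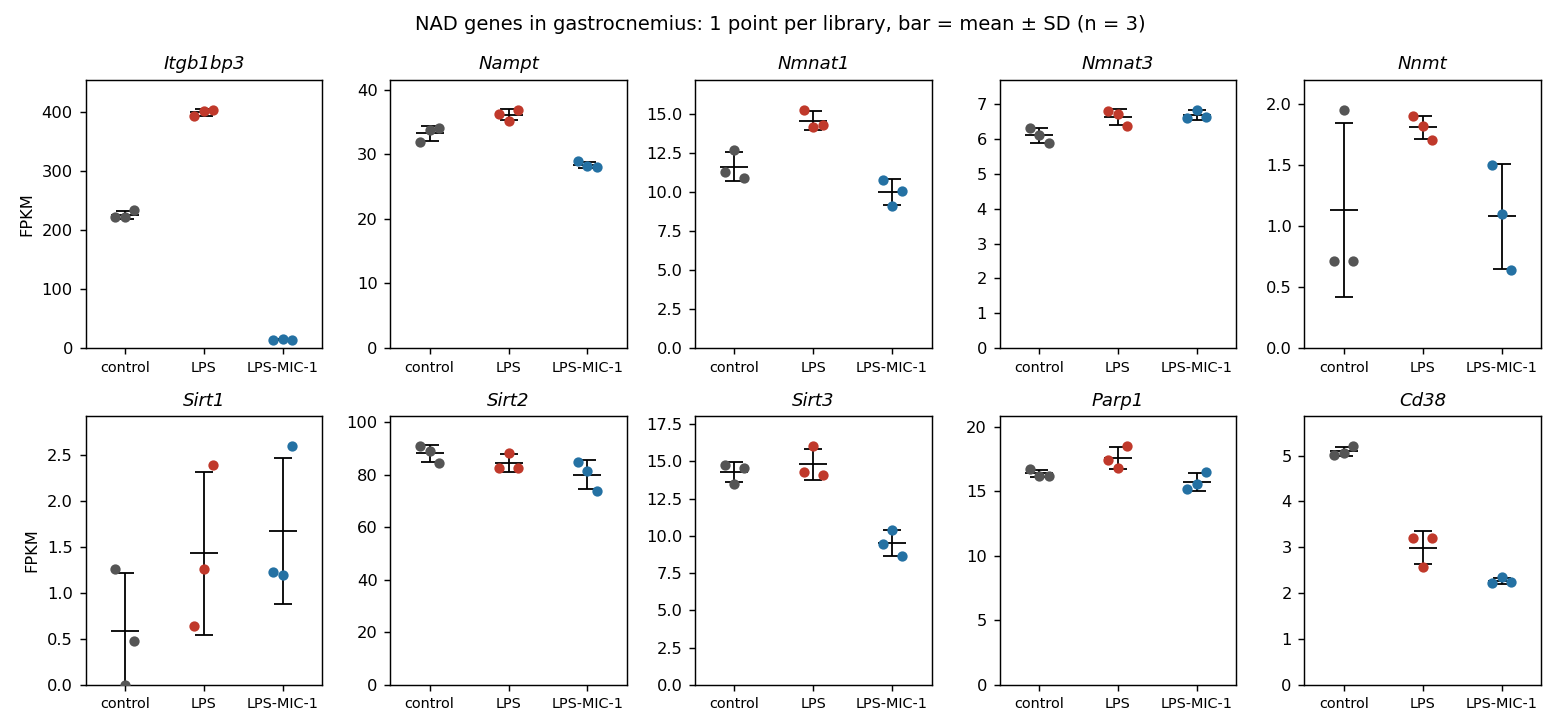
FPKM of the 10 genes in the gastrocnemius libraries on a linear axis from 0, with 1 point per library, control in grey, LPS in red and LPS-MIC-1 in blue, and bars for the mean ± SD of 3 libraries. Itgb1bp3 runs from 222 to 235 FPKM in control and 393 to 405 FPKM in LPS to 13.2 to 16.1 FPKM in LPS-MIC-1, while Nmnat3, Sirt2 and Parp1 stay within a narrow range.

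In muscle labelled LPS-MIC-1, Itgb1bp3 had 13.2, 16.1 and 14.5 FPKM. On the log2 scale this was -4.77 ± 0.0638 (standard error) against LPS and -3.95 against control, or 27.3-fold and 15.5-fold lower. Among the 9475 genes tested, ordered from the largest fall, it was in place 2 against LPS and in place 14 against control. The summed fibre markers were also lower in these libraries (mean 143790 against 172980 FPKM in LPS), whereas the median of the list overlapped between the groups. The part of fibre content in the level of Itgb1bp3 was not tested. Without replicate 3, the library with the highest macrophage markers, the log2 fold change against LPS was -4.77 as well. In the sum of these markers, the other LPS-MIC-1 libraries (34.0 and 31.9 FPKM) also lay above LPS (23.1 to 26.4 FPKM). Their medians (1.44 and 1.31 FPKM) overlapped with LPS (1.18 to 1.37 FPKM), so the markers did not all rise. In these libraries Fcer1g (16.5 and 15.5 FPKM) lay above LPS (6.50 to 7.95 FPKM). Lyz2 (5.27 and 3.93 FPKM) lay below LPS (8.31 to 9.65 FPKM). The part of macrophages in the level of Itgb1bp3 was not tested.

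Expressed as a multiple of Nampt in the same library, a ratio that no scaling of a whole library alters, Itgb1bp3 lay at 6.57 to 6.97 for control, 10.9 to 11.4 for LPS and 0.457 to 0.570 for LPS-MIC-1. The gene that was several times the level of Nampt in control and LPS was thus below it in all LPS-MIC-1 libraries.

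Of the other synthesis genes, Nampt had 28.9, 28.2 and 28.0 FPKM in LPS-MIC-1, below every LPS and control library, and differed from LPS by -0.35 ± 0.0388 (standard error) on the log2 scale. Nmnat1 had 10.8, 9.14 and 10.1 FPKM in LPS-MIC-1, also below every LPS and control library, with -0.54 (standard error 0.0799) against LPS. Nmnat3 had 6.59 to 6.85 FPKM in LPS-MIC-1 and overlapped with LPS, with a log2 difference of 0.013 ± 0.0556 (standard error). With quantile normalization, under which the median over all genes moved by -0.107, Nmnat3 was at -0.14. Nnmt had 1.50, 1.10 and 0.642 FPKM in LPS-MIC-1, each below the 3 LPS libraries and within the control range or just under it.

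Among the consumers, Sirt3 had 9.45, 10.4 and 8.65 FPKM in LPS-MIC-1 against 14.3, 16.0 and 14.1 FPKM in LPS. The groups did not overlap, and the log2 fold change was -0.64 (standard error 0.081) against LPS and -0.59 against control. Cd38 had 2.22, 2.34 and 2.25 FPKM in LPS-MIC-1, below all other muscle libraries. This was -0.38 ± 0.0974 (standard error) against LPS and -1.13 against control, and the latter was -0.90 when 1 in place of 0.1 was added to FPKM. Parp1 had 15.2, 15.5 and 16.5 FPKM, below LPS without overlap but overlapping with control. Sirt2 (73.9 to 84.8 FPKM) and Sirt1 (1.20 to 2.59 FPKM) overlapped with both other groups.

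By the same thresholds, 1 of the 10 genes (Itgb1bp3) was called between LPS-MIC-1 and LPS, where 15.1% of all genes tested were called. Between LPS-MIC-1 and control, 2 were called (Itgb1bp3 and Cd38), against 15.5%. In 7 of the 10, all LPS-MIC-1 libraries were below all LPS libraries, as were 31.7% of all genes tested. The set was chosen on these muscle libraries, so nothing is read from these counts. The median log2 fold change of the 10 genes was -0.36 against LPS and -0.18 against control, beside -0.0090 and 0.0095 over all genes tested.

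**Figure D3:**
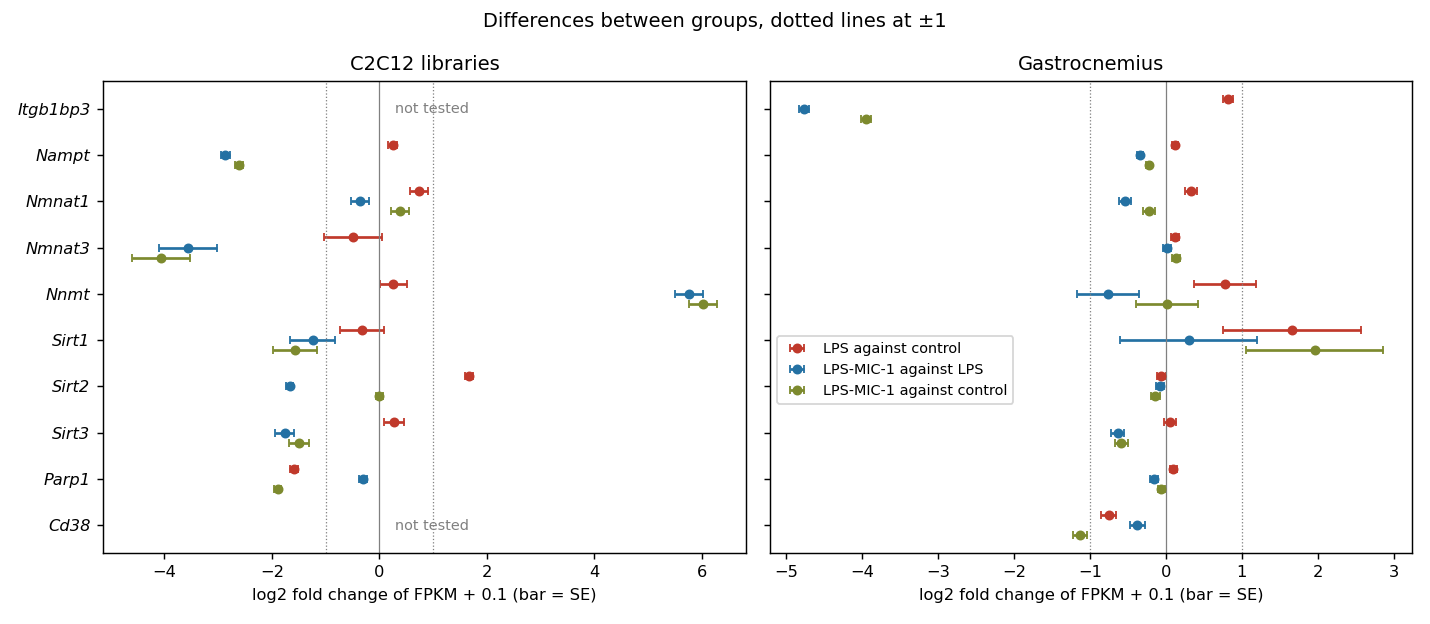
Log2 fold changes of FPKM + 0.1 with standard errors for the 10 genes, in C2C12 (left) and gastrocnemius (right), for LPS against control (red), LPS-MIC-1 against LPS (blue) and LPS-MIC-1 against control (green), with dotted lines at the fold threshold and separate horizontal scales. In muscle, Itgb1bp3 at -4.77 and -3.95 lies far from the others, of which only Cd38 against control (-1.13) and the noisy Sirt1 pass 1 in size, and in C2C12 Nnmt lies at the far right.

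As a description of its pattern, genes were ranked by how closely their log2 values over the 9 muscle libraries, centered per gene, followed those of Itgb1bp3. The closest 5 of the genes tested were Pdzd7, Mfap2, Slc26a10, 4930544D05Rik and Zfp385a, with root-mean-square differences of 0.44 to 0.60 on the log2 scale. Pdzd7 had 18.9 ± 1.10 FPKM in control, 17.4 ± 1.11 FPKM in LPS and 1.02 ± 0.168 FPKM in LPS-MIC-1. 4930544D05Rik had 16.9 ± 1.08, 13.4 ± 1.77 and 0.945 ± 0.195 FPKM in the same order. Mfap2, Slc26a10 and Zfp385a were at 3.02 FPKM or less on average in LPS and at 0.0815 FPKM or less in LPS-MIC-1, so their distance depends on the added 0.1. All 5 were low in LPS-MIC-1, but none had a log2 fold change between LPS and control as high as the 0.82 of Itgb1bp3 (-0.33 to 0.38).

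A list of 46 further genes of NAD metabolism gives the surroundings of the set. Of these, 44 had a symbol in the data, and 25 were over a mean of 1 FPKM in muscle. Nmrk1, the close relative of Itgb1bp3, and Nadk2 were not matched. Nmnat2, the third Nmnat enzyme and known from neurons, was at 0.0758 FPKM or less in every muscle library. Between LPS and control in muscle, 0 of the 25 tested genes were called (limma, 1.25% of all genes tested), 0 at an unadjusted p under 0.05 with the fold threshold, and 6 passed the adjusted p at a smaller fold, a rule met by 15.7% of all genes tested. Their median log2 fold change was -0.062.

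Between LPS-MIC-1 and LPS in muscle, 5 of the 25 were called higher and 2 lower, beside 9.67% and 5.44% of all genes tested. The largest rise was that of Tiparp, a mono-ADP-ribosyltransferase, from 4.40 to 4.91 FPKM in LPS to 19.8 to 21.2 FPKM in LPS-MIC-1. The log2 difference was 2.09 ± 0.0731 (standard error, adjusted p = 9.87e-08). Parp12 and Pnp were next, with log2 fold changes of 2.00 and 1.97 (adjusted p = 2.82e-06 and 1.33e-06). Parp12 is an interferon-inducible ADP-ribosyltransferase, and Pnp splits nucleosides, among them nicotinamide riboside, the substrate of the Itgb1bp3 kinase. Pnp had 1.51, 1.27 and 1.31 FPKM in LPS and 5.69, 6.05 and 5.14 FPKM in LPS-MIC-1, without overlap. Of the falls, Parp16 was at -1.62 (adjusted p = 1.62e-05) and Nudt12, an NADH hydrolase, at -1.18 (standard error 0.377, adjusted p = 0.027). Nudt12 was over a mean of 1 FPKM only with its LPS libraries included. Its means were 1.05 FPKM in control, 1.86 FPKM in LPS and 0.791 FPKM in LPS-MIC-1. Nothing is therefore read from its call or from the count of falls. The summed neutrophil markers were higher in the LPS-MIC-1 libraries, without overlap, though 4 of the 7 markers stayed under 1 FPKM on average there. Their part in the levels of these NAD genes was not tested.

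Against control, 4 of the 25 were called higher in muscle labelled LPS-MIC-1 and 2 lower, beside 9.33% and 6.12% of all genes tested. Tiparp, Parp12 and Parp14 had the largest rises, with log2 fold changes of 2.61, 1.71 and 1.64 (adjusted p = 2.44e-08, 7.11e-06 and 1.23e-05). Parp16 fell by 1.37 on the log2 scale (adjusted p = 4.22e-05). Aox1, an oxidase that takes nicotinamide derivatives among its substrates, fell by 1.22 (adjusted p = 1.11e-06), from 11.3, 11.2 and 10.9 FPKM to 4.78, 4.90 and 4.47 FPKM. None of the other 4 sirtuins was called in any muscle comparison. Against LPS, Sirt4, Sirt5 and Sirt6 were lower by less than the fold threshold, with log2 values of -0.90, -0.59 and -0.50 (adjusted p = 9.12e-05, 0.00127 and 3.29e-04), and Sirt7 was higher, with 0.95 (adjusted p = 9.51e-04). The median log2 fold change of the 25 was -0.024 against LPS and -0.0067 against control.

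**Figure D4:**
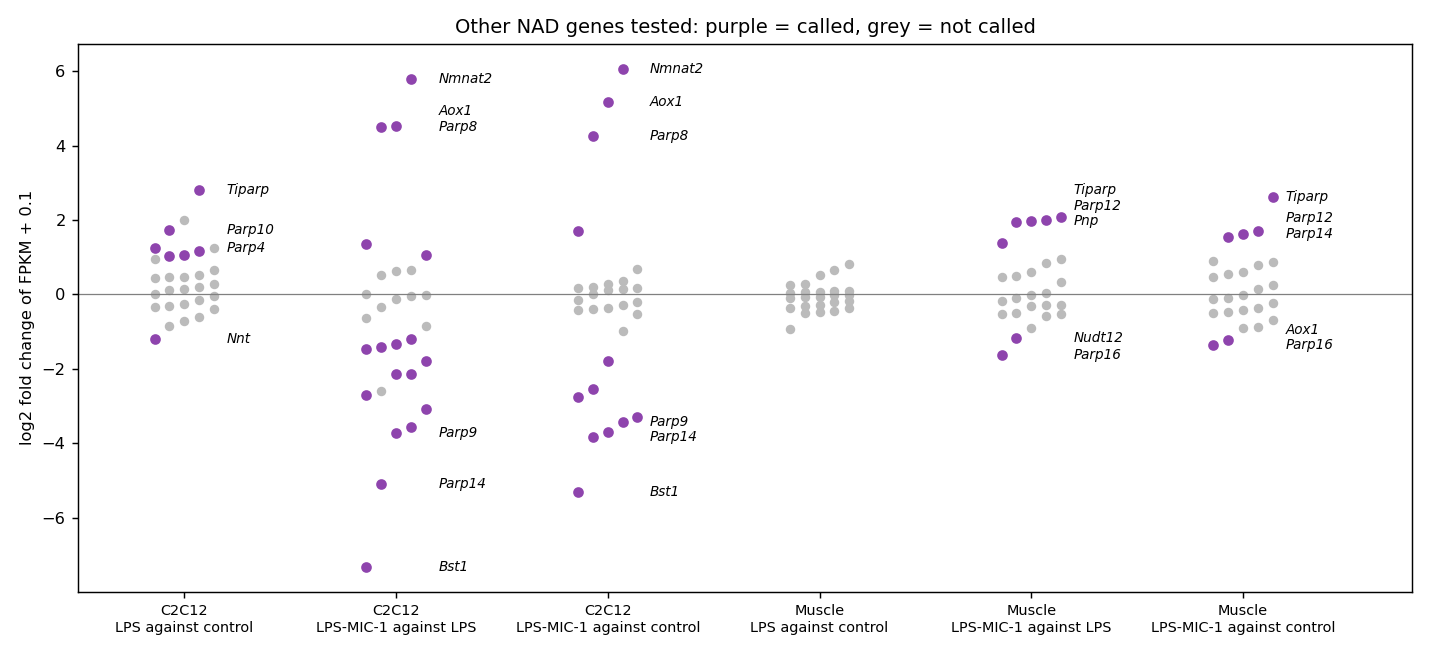
Log2 fold changes of the further NAD genes with a mean over 1 FPKM (29 in C2C12, 25 in muscle) in each of the 6 comparisons, with called genes in purple, others in grey, and up to 3 rises and 3 falls named beside their column. In muscle no gene is called between LPS and control, and Tiparp leads the rises in both LPS-MIC-1 comparisons (2.09 and 2.61).

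In the C2C12 experiment, 8 of the 10 genes had a mean over 1 FPKM and were tested, with the study's stricter adjusted p under 0.001 for cells. Itgb1bp3 and Cd38 did not pass this filter. Itgb1bp3 had 0.121, 0.0897 and 0.118 FPKM in the libraries labelled control, 0, 0.0719 and 0.322 FPKM in LPS and 1.85, 1.36 and 1.43 FPKM in LPS-MIC-1. It was thus highest in the libraries with myogenic markers, at a level far below that of muscle in an experiment normalized apart. Cd38 stayed under 1 FPKM in all 9 libraries, at 0.493 to 0.739 FPKM in LPS-MIC-1 and 0.122 to 0.272 FPKM in the others.

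Comparing the libraries labelled LPS with those labelled control, 2 of the 8 genes were called, beside 20.9% of the 10877 genes tested. Sirt2 was higher in LPS, with 50.9, 53.3 and 52.1 FPKM in control and 169, 168 and 160 FPKM in LPS. The log2 difference was 1.67 ± 0.0702 (standard error, adjusted p = 4.96e-07), or 3.17-fold. Parp1 was lower in LPS, with 91.6, 93.5 and 95.2 FPKM in control and 32.0, 30.8 and 30.2 FPKM in LPS. The log2 difference was -1.59 ± 0.0692 (standard error, adjusted p = 5.88e-07), or 3.01-fold. Both genes were far from overlap between the groups.

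The other 6 tested genes were not called in this comparison. Nampt had 45.9 to 48.4 FPKM in control and 55.5 to 56.3 FPKM in LPS, 0.25 ± 0.0778 on the log2 scale (standard error, adjusted p = 0.0229). Nmnat1 had 3.23 to 3.85 FPKM and 5.57 to 6.70 FPKM, 0.74 ± 0.165 on the log2 scale (standard error, adjusted p = 0.00454). Sirt1, Sirt3 and Nmnat3 had adjusted p-values of 0.52, 0.239 and 0.461. All 3 control libraries and 2 of the 3 LPS libraries list Nnmt at 0. Of the 8 genes, 4 were higher and 2 lower in all LPS libraries than in all control libraries, beside 39.4% and 40.1% of all genes tested.

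In the C2C12 libraries labelled LPS-MIC-1, 5 of the 8 genes were called against those labelled LPS, 4 lower and 1 higher, beside 25.6% and 24.3% of all genes tested. The 1 higher gene was Nnmt, which passed the filter of a mean over 1 FPKM only through its level in LPS-MIC-1. Nampt had 7.62, 6.77 and 8.51 FPKM in LPS-MIC-1, against 55.5 to 56.3 FPKM in LPS. This was -2.86 ± 0.0778 on the log2 scale (standard error, adjusted p = 1.36e-08), a 7.27-fold lower level, and all LPS-MIC-1 libraries lay below all others. Sirt2 had 51.8, 47.3 and 57.7 FPKM in LPS-MIC-1, which was -1.67 on the log2 scale against LPS (adjusted p = 1.17e-07). Against control, Sirt2 differed by -1.3e-04 on the log2 scale, with a 95% interval of -0.16 to 0.16.

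Sirt3 fell to 2.14, 3.52 and 2.55 FPKM in LPS-MIC-1 from 8.98 to 9.69 FPKM in LPS, -1.76 ± 0.183 on the log2 scale (standard error, adjusted p = 2.87e-05). Nmnat3 had 3.21, 3.23 and 2.97 FPKM in LPS and 0.315, 0.398 and 0 FPKM in LPS-MIC-1. This was -3.56 ± 0.54 on the log2 scale (standard error, adjusted p = 3.13e-04), and the call was lost without any single LPS library (-3.54, -3.54 and -3.60 without replicates 1, 2 and 3, adjusted p = 0.00167, 0.00167 and 0.00153). The size depends on the added value, with -1.76 for an added 1 and -4.84 for 0.01. Nnmt went the other way, to 8.17, 5.44 and 5.84 FPKM in LPS-MIC-1 from 0, 0 and 0.0722 FPKM in LPS. Its fitted log2 fold change of 5.76 depends on the added value, with 2.85 for an added 1 and 8.31 for 0.01. Nothing is read from the call of Nnmt, since it passed the filter only through LPS-MIC-1. The libraries compared also differ in the macrophage and myogenic markers given above. The fibroblast markers summed to 0.848 to 1.95 FPKM in LPS and 442 to 537 FPKM in LPS-MIC-1.

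Sirt1, Nmnat1 and Parp1 were not called between LPS-MIC-1 and LPS. Sirt1 had 2.37, 0.971 and 3.66 FPKM in LPS-MIC-1 and 4.18 to 6.15 FPKM in LPS, -1.24 ± 0.41 on the log2 scale (standard error, adjusted p = 0.0208), and -0.74 without LPS-MIC-1 replicate 2. Nmnat1 overlapped between the groups, with -0.35 (standard error 0.165, adjusted p = 0.0751), and was at -0.19 without LPS-MIC-1 replicate 3. Parp1 had 26.1, 22.5 and 27.0 FPKM in LPS-MIC-1, -0.30 ± 0.0692 on the log2 scale (standard error, adjusted p = 0.00348). Against control, Parp1 was called lower (-1.89, adjusted p = 5.61e-08), as were Nampt (-2.62, adjusted p = 1.84e-08), Nmnat3 (-4.05, adjusted p = 1.56e-04) and Sirt3 (-1.49, adjusted p = 9.24e-05). Nnmt was called higher against control, where it is listed at 0, but it was tested only because of its level in LPS-MIC-1. That makes 5 of 8, beside 43.3% of all genes tested.

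The order of levels in the libraries labelled control was Parp1, Sirt2, Nampt, Sirt3, Sirt1, Nmnat3, Nmnat1, Cd38, Itgb1bp3 and Nnmt, where Sirt3 overlapped with Sirt1 and Nmnat3 with Nmnat1. In LPS, Sirt2 at 166 ± 5.06 FPKM (mean ± SD, n = 3) and Nampt at 55.9 ± 0.412 FPKM stood above Parp1 at 31.0 ± 0.885 FPKM. In LPS-MIC-1, Sirt2 (52.3 ± 5.25 FPKM) and Parp1 (25.2 ± 2.40 FPKM) led, and Nampt at 7.63 ± 0.874 FPKM overlapped with Nnmt at 6.49 ± 1.47 FPKM.

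**Figure D5:**
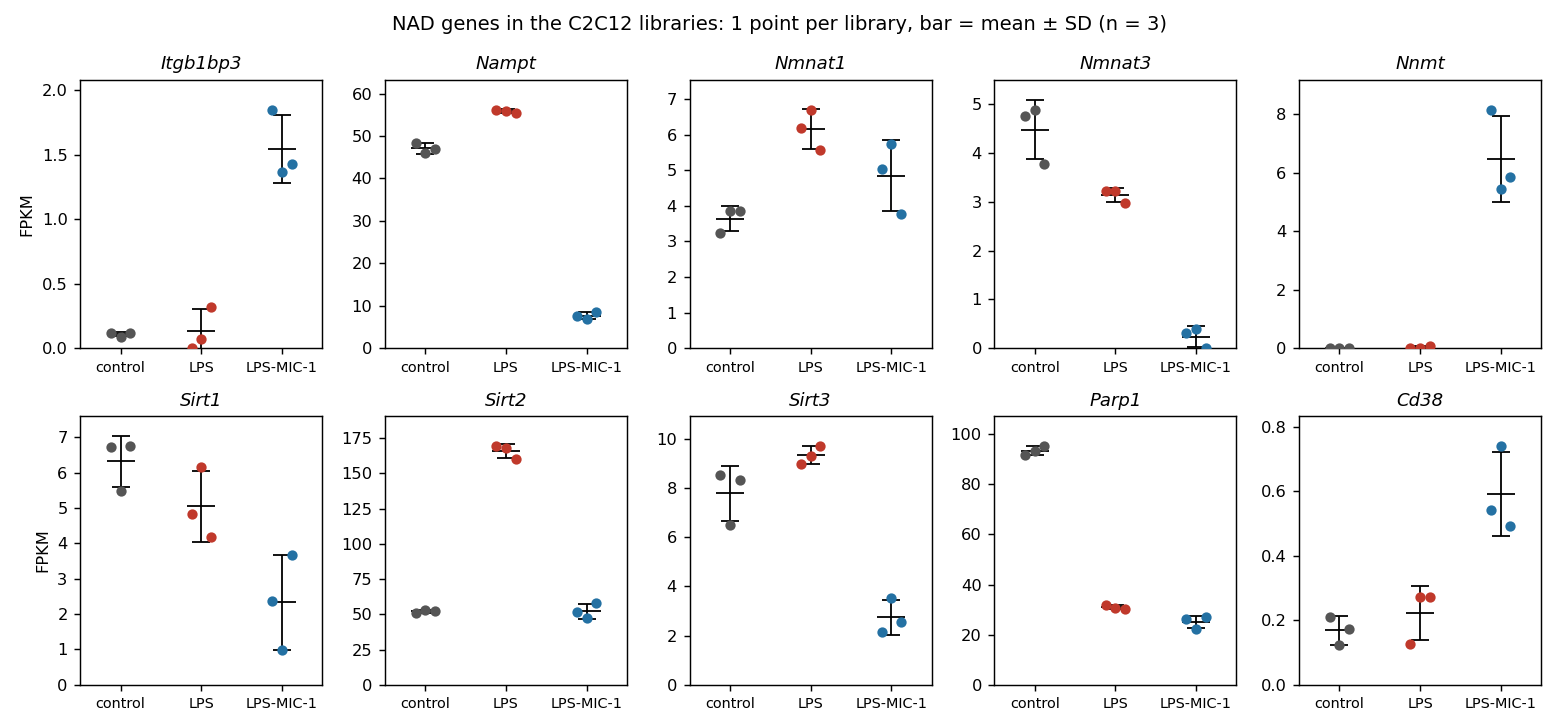
FPKM of the 10 genes in the C2C12 libraries on a linear axis from 0, with 1 point per library, control in grey, LPS in red and LPS-MIC-1 in blue, and bars for the mean ± SD of 3 libraries. Sirt2 is high only in LPS (160 to 169 FPKM), Parp1 only in control (91.6 to 95.2 FPKM), and Nnmt and Itgb1bp3 are highest in LPS-MIC-1, where Nampt is lowest.

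Of the further NAD genes, 29 were tested in C2C12. Between LPS and control, 6 were called higher and 1 lower, beside 10.9% and 10% of all genes tested. Among the called genes Tiparp had the largest log2 fold change, 2.81 (adjusted p = 5.37e-07), followed by Parp10 with 1.72 (adjusted p = 2.34e-06) and Parp4 with 1.26 (adjusted p = 8.33e-06). The one fall was that of Nnt, the mitochondrial transhydrogenase, by 1.19 on the log2 scale (adjusted p = 4.60e-06). Of the 6 higher genes, 5 belong to the PARP family, of which 13 members were tested, while Parp1 itself was lower.

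Between LPS-MIC-1 and LPS, 5 of the 29 were called higher and 13 lower, beside 24.3% and 25.6% of all genes tested, and the median was -0.84 on the log2 scale, that of all genes -0.047. Of the 13 PARP genes, 10 were lower and 2 higher. The largest falls were those of Bst1, an NAD hydrolase related to Cd38, with -7.32 (standard error 0.776, adjusted p = 3.27e-05), and of Parp14 and Parp9, with -5.10 and -3.72 (adjusted p = 1.27e-07 and 1.09e-07). Bst1 had 47.7, 45.2 and 46.7 FPKM in LPS and 1.13, 0 and 0.0998 FPKM in LPS-MIC-1. The LPS-MIC-1 libraries also differ in macrophage signal, whose part in the level of Bst1 was not tested. The largest rises were those of Nmnat2, Aox1 and Parp8, with 5.78, 4.52 and 4.52. Each of these genes passed the filter of a mean over 1 FPKM only through LPS-MIC-1. Nothing is therefore read from their calls or from the count of rises. Parp11, among the falls, passed the filter only with its LPS libraries included. It averaged 1.59 FPKM in control, 1.76 FPKM in LPS and 0.0927 FPKM in LPS-MIC-1. The counts of falls and of lower PARP genes are therefore not read either. Nmnat2 had 0.0542 FPKM or less in LPS and 6.58, 7.31 and 8.19 FPKM in LPS-MIC-1, so its fold also depends on the added 0.1.

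Against control, 4 of the 29 were called higher in the C2C12 libraries labelled LPS-MIC-1 and 8 lower, beside 21.1% and 22.1% of all genes tested. Nmnat2 again had the largest log2 fold change, 6.07, and Bst1 the most negative, -5.32 (adjusted p = 2.74e-04). Nmnat2, Aox1 and Parp8 were again among the rises and were tested only because of LPS-MIC-1, so nothing is read from that count. Nudt12 and Parp11, among the falls, passed the filter only with their control libraries included. They averaged 2.71 and 1.59 FPKM in control, 1.63 and 1.76 FPKM in LPS and 0.261 and 0.0927 FPKM in LPS-MIC-1. The count of falls is therefore not read either. Parp12 and Parp14, higher in muscle labelled LPS-MIC-1 than in muscle labelled LPS, had -2.71 and -5.10 in the same comparison of C2C12 libraries. The 2 experiments were normalized apart and the difference between them was not tested.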

How the data were processed

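The authors pseudoaligned RNA-seq reads with kallisto 0.46.11, used tximport for gene-level values, and deposited FPKM for each gene symbol and library. The submitters' processing notes name the build mm9. The deposited FPKM values summed to 547480 to 797730 per C2C12 library and 634200 to 740810 per muscle library. Reads per library are not given in the sources used here, so no counting interval can be given. Nothing states the samples of 9 unnamed columns of values beside the muscle table, and they were not used. The authors' 6 tables of DESeq2 1.30.13 comparisons, with mean counts, fold changes and p-values, were not used.

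Each experiment was fitted apart with limma 3.58.1 in R 4.3.3, on log2(FPKM + 0.1) for genes with a mean over 1 FPKM, with 3 group means, 1 spread estimate per gene over 9 libraries, eBayes with a trend and Benjamini-Hochberg adjustment over all genes tested. Fold changes are on this scale, which understates those of low genes. Calls used the study's thresholds, a log2 fold change beyond 1 in size with an adjusted p under 0.001 (C2C12) or 0.05 (muscle). With 3 libraries against 3, an exact 2-sided permutation test cannot go below p = 0.1. Groups came from the sample titles. Symbols were matched through RefSeq's gene table (GRCm38.p6), and no coordinates or sequences are given. The fit was tested on simulated data.

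The genes and lists were chosen with earlier results of these data known. Named are the 10 genes, Nmrk1 and Nmnat2, up to 3 called rises and 3 called falls of the further NAD genes per comparison, and the 5 closest patterns to Itgb1bp3. The other sirtuins and single values of Parp12, Parp14 and Nnt outside this rule were picked with their values in view. The alternatives tried were leaving out each library, a replicate block, adding 1 or 0.01, a filter at a mean of 5 FPKM or none, quantile normalization or median-ratio scaling, no trend in eBayes, and a fit of the 6 compared libraries. Figures used matplotlib 3.10.9 in Python 3.11.15.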

Additional observations from a re-analysis of the deposited data

Results flagged for a closer look

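For 5 genes, all libraries of a comparison moved one way in C2C12 and the other way in muscle, and in none of these cases was the difference between the experiments itself tested. Groups without overlap are common: between LPS and control, 39.4% of all genes tested were higher and 40.1% lower in C2C12, and 18.8% and 17.7% in muscle. The share of all genes with opposite directions was not counted, so nothing is read from the number 5. Itgb1bp3 had a log2 fold change of 3.08 between LPS-MIC-1 and LPS in C2C12 and of -4.77 in muscle, and 2.97 and -3.95 between LPS-MIC-1 and control. Cd38 had 1.12 and -0.38 in the first of these comparisons and 1.36 and -1.13 in the second. The C2C12 values of Itgb1bp3 and Cd38 come from the fit without a filter, at levels of 1.85 FPKM or less, and the muscle values of Itgb1bp3 are those by which the genes were chosen. Parp1 had -1.59 between LPS and control in C2C12 and 0.099 in muscle, where it was not called. Nmnat3 had -0.49 in C2C12 and 0.12 in muscle in the same comparison, neither called, and -4.05 and 0.13 between LPS-MIC-1 and control. Nnmt had 5.76 between LPS-MIC-1 and LPS in C2C12, or 2.85 with 1 added and 8.31 with 0.01 added. In muscle Nnmt had -0.76 on levels near 1 FPKM, and -0.46 without LPS-MIC-1 replicate 3. The C2C12 libraries labelled control and LPS carry macrophage markers, whose part in these differences was not tested.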

How the results depend on the processing

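Of 951 refitted fold changes of the 10 genes, 927 counted as unchanged. In both muscle comparisons that involve LPS-MIC-1, this meant a move smaller than the spread between replicates. In the other comparisons it meant an unchanged call, whatever the size of the move. Only uncalled values whose sign turned were also held against the spread there. Nnmt in C2C12, at 2.85 with 1 added in place of 5.76 against LPS, thus counted as unchanged. The sign turned in 18, all of uncalled values of at most 0.30 in size, of Sirt1, Sirt2, Sirt3, Nnmt and Nmnat3. In C2C12, 7 lost a call, all of Nmnat3, which has a library at 0 FPKM: against LPS with 0.01 added (-4.84, adjusted p = 0.00736), with only the 6 libraries compared (adjusted p = 0.00236) and without any single LPS library, and against control with 0.01 added (adjusted p = 0.00475) and with only 6 libraries (adjusted p = 0.00144). In both muscle comparisons that involve LPS-MIC-1, 17 moved by more than the spread, 16 of them under quantile normalization. That normalization shifted the median of all genes by -0.107 against LPS and -0.11 against control and brought Itgb1bp3 to -4.87 and -4.07. The rules differ, so the 7 and the 17 cannot be set against each other.

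The numbers of the 10 genes called changed by over 1.5 times when only genes with a mean over 5 FPKM were tested, to 3 in C2C12 between LPS-MIC-1 and LPS and 3 against control, and to 1 in muscle between LPS-MIC-1 and control, since fewer genes were tested. That last number was also 1 with 1 added to FPKM. For the further NAD genes, the same filter gave 7 in C2C12 between LPS-MIC-1 and control, and in muscle 1 against LPS and 2 against control. Without a filter, muscle had 1 called between LPS and control, 12 between LPS-MIC-1 and LPS and 10 between LPS-MIC-1 and control. Leaving out single libraries changed no number of calls by over 1.5 times.

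Same-numbered libraries of different groups did not deviate together (r from -0.0757 to 0.0573 in C2C12 and -0.054 to 0.0823 in muscle), so replicate numbers were not treated as pairs. The labels do not state how replicates were made, and a low r cannot show that same-numbered libraries were handled apart. A replicate block left the 2, 5 and 5 calls in C2C12 and the 0, 1 and 2 in muscle unchanged, and gave 6, 18 and 11 calls of the further NAD genes in C2C12 and 0, 7 and 6 in muscle. With this block Nmnat1 between LPS and control in muscle no longer passed the adjusted p (0.33, adjusted p = 0.0578). Genes under about 1 FPKM rest on few reads, and depth is unknown.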

Other observations

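Nnt, the mitochondrial transhydrogenase that links NADH to NADPH, was at 0 FPKM in 7 of the 9 muscle libraries and at 0.0284 and 0.179 FPKM in the others, while every C2C12 library had 3.07 to 8.78 FPKM. It was picked out after its values were seen, and the labels give the strain of the mice as C57BL/6 without a substrain. Parp6 is listed at 0 in all 18 libraries. Of the 8 genes of the kynurenine route, which makes NAD from tryptophan, only Afmid had a mean over 1 FPKM in either experiment, and it was not called in any of the 6 comparisons. Ido1, the first enzyme of that route and inducible by interferon, had 0.714, 0.476 and 1.30 FPKM in muscle labelled LPS-MIC-1, 0.225 FPKM in 1 LPS library and 0 in the other 5 muscle libraries.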
